A study of Mus musculus with 75 samples.

Results

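The genes described here are 40 genes of the DNA replication fork and of replication origins, chosen as a list by their function from the 24984 genes in each count table. They fall into 10 roles: the sliding clamp and its loader, DNA polymerase α-primase, DNA polymerases δ and ε, the origin recognition complex (ORC), GINS with Cdc45, the Dbf4-dependent kinase (DDK), replication protein A (RPA), Okazaki fragment maturation, fork protection and the histone chaperone CAF-1. All 40 were counted in every library and passed the filter on low counts in every experiment. The study followed skin fibroblasts of C57BL/6 mice through replicative senescence, the lasting growth arrest that cells enter after repeated passaging, and asked which transcription factors act on it. The passage series holds 16 RNA-seq libraries, 4 each at passages P1, P3, P5 and P7, and 13 ATAC-seq samples, 4 at P1 and 3 at each later passage. Its cells came from 2-month-old female mice for which no genetic change is given. In P4 cells, 2 libraries overexpressed E2f4 from a doxycycline-inducible lentivirus and 2 control libraries carried the corresponding EGFP vector. In P3 cells, 3 libraries carried the E2f4 hairpin sh1 and 3 a non-targeting hairpin. The Tead1 experiment holds 3 libraries each of hairpin sh3, hairpin sh4 and a non-targeting hairpin, and the Atf3 experiment, in pre-senescent cells, 3 each of hairpins sh5, sh6 and a non-targeting hairpin. All knockdown cultures, controls included, were transduced with lentivirus and selected with puromycin, and the manipulated cells came from newborn and 2-month-old mice, without a statement of which served in which experiment.

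Replication starts when ORC marks origins and loads the MCM helicase, and when DDK then triggers the joining of Cdc45 and GINS to form the active helicase. Polymerase α-primase lays down primers, replication factor C loads the PCNA clamp, polymerases ε and δ copy the leading and lagging strands, RPA coats single strands, and the nucleases and ligase of Okazaki fragment maturation seal the lagging strand before CAF-1 places histones on the new DNA. Many of these genes are transcribed around the start of S phase under E2F factors, so their mRNA is high in dividing cultures and low in arrested ones.

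Total counts lay between 13430229 and 15725823 per library in the passage series and between 9147324 and 27552949 in the manipulated cells. Levels below are in CPM, a gene's read count scaled to the size of its library with TMM factors. E2f4 was 27.8-fold higher in the overexpressing libraries and 2.82-fold lower with sh1. Tead1 was 1.94-fold and 1.71-fold lower with sh3 and sh4, and Atf3 was 2.2-fold lower with sh5 (adjusted p = 0.0447) but did not pass with sh6 (log2 fold change -0.79, adjusted p = 0.114). Atf3 rested on few reads: in order of replicate 27, 41 and 8 with sh5, 26, 26 and 36 with sh6 and 78, 52 and 60 in the controls. All 8 fibroblast markers were detected in each group, and they summed to 19200 to 21500 CPM at P1 and 31600 to 33900 CPM at P7. They did not rise as a set: 4 were lower and 4 higher at P7 than at P1 (median log2 fold change 0.06). The P1 libraries also held RNA of other cell types: the 8 macrophage markers summed to 298 to 458 CPM at P1 and 33.6 to 51.2 CPM at P7, the 8 keratinocyte markers to 58.1 to 370 CPM and 4.81 to 7.94 CPM, the 6 endothelial markers to 151 to 164 CPM and 6.18 to 8.53 CPM, the 8 skeletal muscle markers to 154 to 249 CPM and 39.2 to 110 CPM, and the 5 adipocyte markers to 44.6 to 58.4 CPM and 1.19 to 5.92 CPM. The 5 Schwann cell and melanocyte markers did not fall as a set. They summed to 32.6 to 41.1 CPM at P1 and 39 to 120 CPM at P7, with 2 of 3 tested markers higher at P7 and 1 lower. Further marker levels are given beside the results in the manipulated cells, and the part of these cell types in the comparisons with P1 was not tested. In bulk RNA, fewer cycling cells and less of an mRNA per cell cannot be told apart.

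From P1 to P7, 34 of the 40 genes fell and none rose, with 30 falling more than 2-fold. Over all 13442 genes tested, 31.9% fell, and 13.3% fell more than 2-fold. The median log2 fold change of the 40 genes was -1.65, within a range of -3.19 to 0.14, while the median of all genes was -0.01. Every gene of the clamp and loader, of the polymerases, of DDK, of fork protection and of CAF-1 fell. The 6 genes that did not pass were Orc3, Orc4 and Orc5 of ORC, Gins4, Rpa3 and Rnaseh2a. Between P3 and P7, without the P1 libraries in the contrast, 36 of the 40 genes fell and none rose, where 26.5% of all genes fell, with a median of -1.06. The 4 proliferation genes Mki67, Ccnb1, Cdk1 and Ccne2 fell from P1 to P7 as well, with a median of -2.62.

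**Figure D1:**
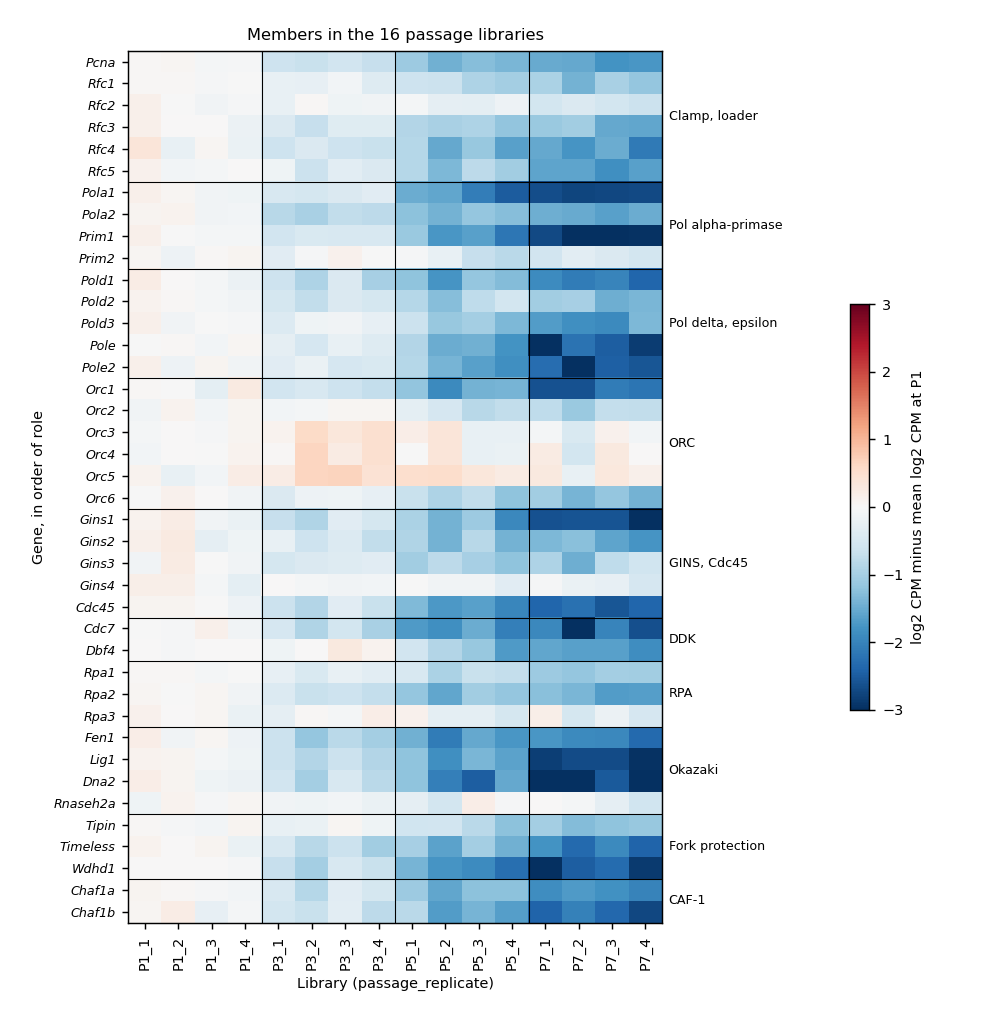
Level of the 40 genes (rows, in order of role) in each of the 16 passage libraries (columns), as log2 CPM minus the mean log2 CPM of the 4 P1 libraries. Blue deepens from P3 to P7 in most rows, while Orc3, Orc4, Orc5, Gins4, Rpa3 and Rnaseh2a stay pale at P7.

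Pcna, which encodes the sliding clamp that holds polymerases on DNA, had the highest level of the 40 genes per kilobase of exon, at 141 CPM per kb at P1 on average. Its CPM values were 183, 185, 171 and 172 at P1, 115, 112, 119.5 and 110.0 at P3, 83.2, 65.4, 73.4 and 68.9 at P5 and 62.4, 60.96, 51.1 and 53.1 at P7. No library of one passage overlapped with the next, and the level at P7 was 3.13-fold lower than at P1 (log2 fold change -1.65, SE 0.09, adjusted p = 1.11e-11). Among the 5 loader subunits the largest fall was that of Rfc4, from 14.7, 9.79, 11.8 and 9.84 CPM at P1 to 3.89, 3.32, 4.07 and 2.60 CPM at P7 (log2 fold change -1.73, SE 0.19, adjusted p = 2.35e-07). Exons of Rfc4 overlap those of Eif4a2 on the other strand by 160 bases, and the counting ignored strand. The smallest was that of Rfc2, from 39.6, 35.4, 32.7 and 34.4 CPM to 24.1, 26.2, 24.1 and 22.5 CPM (log2 fold change -0.55, SE 0.09, adjusted p = 3.09e-05), a 1.46-fold difference without overlap between the groups.

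The 2 primase subunits differed widely. Prim1, the catalytic subunit that synthesises RNA primers, was at 30.6, 27.4, 26.3 and 26.4 CPM at P1, 18.6, 20.2, 19.8 and 19.9 CPM at P3, 12.8, 8.30, 8.98 and 6.16 CPM at P5 and 4.20, 3.40, 3.15 and 3.56 CPM at P7. It fell 7.72-fold (log2 fold change -2.95, SE 0.17, adjusted p = 3.1e-11), the second largest fall of the 40 genes. Prim2, its regulatory partner, was at 31.9, 27.5, 31.4 and 32.4 CPM at P1 and 20.5, 24.7, 22.8 and 21.1 CPM at P7, a 1.38-fold fall (log2 fold change -0.47, SE 0.14, adjusted p = 0.00811). The groups of Prim2 did not overlap, but its P5 libraries spread from 17.7 to 29.8 CPM. The polymerase α subunits Pola1 and Pola2 fell 6.57-fold and 2.87-fold.

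Of the replicative polymerases, Pole, the catalytic subunit of polymerase ε, fell most, from 55.8, 58.4, 53.6 and 58.8 CPM at P1 to 6.57, 12.2, 10.2 and 7.87 CPM at P7 (log2 fold change -2.62, SE 0.18, adjusted p = 1.87e-10). Its partner Pole2 fell 6.1-fold and the catalytic subunit of polymerase δ, Pold1, 4.23-fold. Pold2, an accessory subunit of polymerase δ, had the smallest fall of this role, from 27.9, 26.4, 24.8 and 24.1 CPM to 12.4, 12.9, 9.30 and 10.02 CPM (log2 fold change -1.21, SE 0.14, adjusted p = 3.97e-07). Its exons overlap those of Aebp1 on the other strand by 69 bases.

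ORC held 3 of the 6 genes that did not pass, beside 3 that fell. Orc1, the subunit whose abundance cycles in dividing cells, was at 15, 14.5, 11.8 and 17.5 CPM at P1 and 2.37, 2.39, 3.38 and 3.19 CPM at P7 and fell 5.18-fold (log2 fold change -2.37, SE 0.18, adjusted p = 8.29e-10). Orc6 fell 2.37-fold and Orc2 1.77-fold. Orc5 was at 13.2, 10.5, 11.7 and 14.4 CPM at P1, 14.3, 19.4, 19.6 and 16.8 CPM at P3, 17.5, 17.8, 15.6 and 14.8 CPM at P5 and 15.1, 10.7, 15.4 and 13.7 CPM at P7. Its P1 and P7 values overlapped (log2 fold change 0.14, SE 0.14, adjusted p = 0.408), and against P3 the log2 fold change at P7 was -0.36 and passed, so that the sign depended on the reference passage. Orc3 and Orc4, core subunits of the complex, were at 39.8, 41.7, 40.5 and 43.7 CPM and 37.8, 40.1, 39.6 and 42.7 CPM at P1 and at 39.7, 29.9, 45.1 and 38.9 CPM and 47.2, 27.2, 48.6 and 40.2 CPM at P7, with log2 fold changes of -0.11 and 0.03. In both genes the library P7 replicate 2 was the lowest of the 16. Exons of Orc3 overlap Akirin2 by 128 bases and those of Orc4 overlap Acvr2a by 440 bases, on the other strand in both cases.

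GINS, a ring of 4 subunits that joins the helicase, also held a gene that did not pass. Gins1 was at 11.4, 12.4, 9.84 and 9.22 CPM at P1 and 1.76, 1.77, 1.77 and 1.11 CPM at P7 (log2 fold change -2.74, SE 0.22, adjusted p = 2.82e-09), a 6.67-fold fall. Gins4 was at 30.3, 30.4, 26.04 and 22.2 CPM at P1 and 26.4, 23.5, 22.8 and 19 CPM at P7 (log2 fold change -0.25, SE 0.12, adjusted p = 0.0679), and the groups overlapped. Gins2 and Gins3 fell 2.81-fold and 1.87-fold, and Cdc45, which completes the helicase, 5.24-fold. Of DDK, the kinase Cdc7 went from 24.4, 23.6, 27 and 22.8 CPM to 6.34, 2.16, 6.15 and 3.93 CPM (log2 fold change -2.39, SE 0.22, adjusted p = 1.52e-08), and its activator Dbf4 from 64.7, 62.2, 64.7 and 64.8 CPM to 21.8, 20.6, 20.6 and 17.6 CPM (log2 fold change -1.67, SE 0.16, adjusted p = 3.42e-08).

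In RPA, the trimer that protects single-stranded DNA, Rpa2 went from 32.9, 31.4, 32.7 and 29.1 CPM at P1 to 13.1, 12.2, 9.91 and 9.95 CPM at P7 (log2 fold change -1.48, SE 0.12, adjusted p = 4.37e-09) and Rpa1 fell 2.1-fold. The smallest subunit, Rpa3, was at 12.9, 11.9, 12.3 and 10.3 CPM and 13.4, 8.18, 10.5 and 8.31 CPM (log2 fold change -0.23, SE 0.17, adjusted p = 0.236), with overlapping groups. Dna2, a nuclease that trims long flaps of Okazaki fragments, had the largest fall of all 40 genes, from 12.8, 11.8, 10.2 and 9.90 CPM to 0.763, 1.24, 1.92 and 0.965 CPM, or 9.1-fold (log2 fold change -3.19, SE 0.27, adjusted p = 4.76e-09). It also had the lowest level per kilobase at P1, 2.71 CPM per kb, so its P7 values rest on few reads. The ligase Lig1 fell 6.92-fold and the flap nuclease Fen1 3.92-fold. Rnaseh2a, the catalytic subunit of the RNase H2 enzyme that removes RNA from DNA, was at 16.03, 19.1, 17.2 and 18.4 CPM and 17.8, 17.1, 14.6 and 11.7 CPM and did not pass (log2 fold change -0.21, SE 0.15, adjusted p = 0.218).

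All 3 fork protection genes and both CAF-1 genes fell. Wdhd1, which links polymerase α to the helicase, went from 41.4, 41.4, 41.1 and 40.2 CPM to 5.04, 7.41, 8.22 and 5.64 CPM (log2 fold change -2.64, SE 0.17, adjusted p = 1.05e-10). Timeless fell 4.25-fold, while Tipin, its binding partner, went from 38.9, 36.8, 35.96 and 39.97 CPM to 18.8, 15.3, 16.4 and 17.2 CPM (log2 fold change -1.16, SE 0.12, adjusted p = 1.04e-07). The CAF-1 subunit Chaf1b went from 30.6, 34.4, 24.9 and 28.4 CPM to 5.57, 7.18, 5.76 and 4.45 CPM (log2 fold change -2.37, SE 0.19, adjusted p = 2.03e-09) and the large subunit Chaf1a from 77.1, 74.96, 71.6 and 68.9 CPM to 20.1, 22.6, 20.9 and 18.3 CPM (log2 fold change -1.84, SE 0.11, adjusted p = 7.32e-11). Without TMM factors, scaled to library totals alone, the median of all genes moved to -0.22 and 37 of the 40 genes fell, Gins4, Rpa3 and Rnaseh2a now among them.

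**Figure D2:**
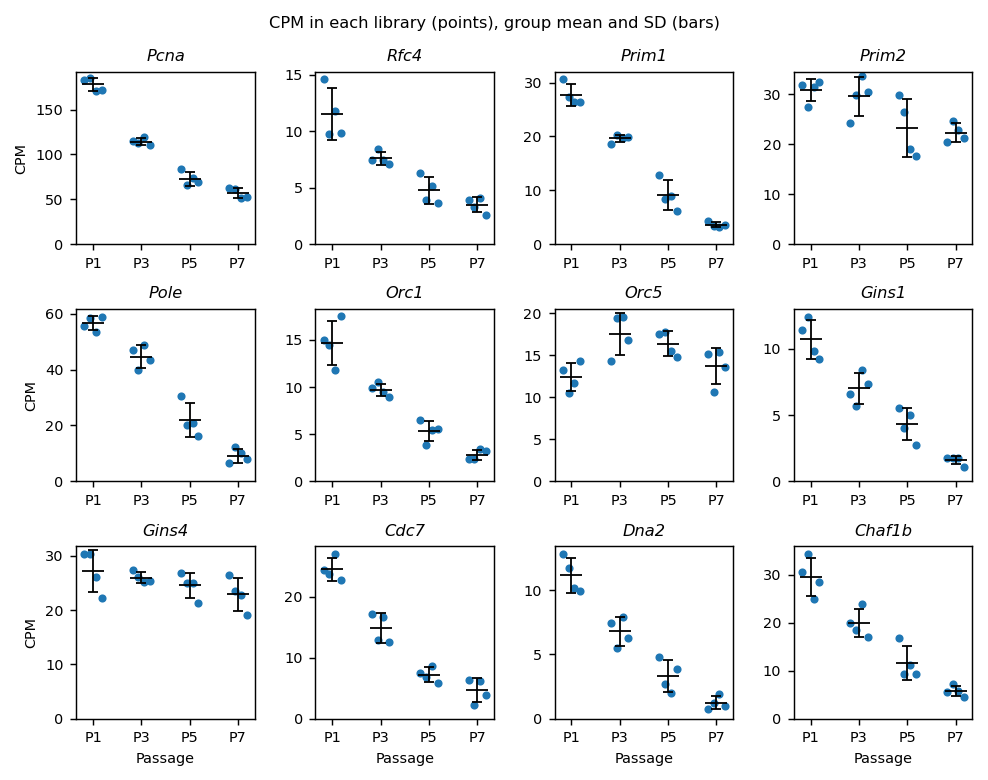
CPM of 12 of the genes at each passage, with a point for each of the 4 libraries, the group mean as a short line and the SD as bars. Pcna, Prim1, Pole, Orc1 and Dna2 decline at every step, Gins4 shows overlapping passages, and Orc5 is highest at P3.

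The same comparison in 30 other replication genes, among them the MCM helicase and its loaders, gave 26 that fell and 1 that rose, with a median log2 fold change of -2.16. The largest falls were those of Dscc1, part of an alternative clamp loader (-4.25), the checkpoint mediator Clspn (-3.54) and the licensing factor Cdc6 (-3.45). Pold4, a small accessory subunit of polymerase δ, was the gene that rose (log2 fold change 1.06, SE 0.25, adjusted p = 0.0011).

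The decline was spread over the passages. From P1 to P3, 24 of the 40 genes fell, where 17.5% of all genes fell, and 2 rose, where 16% of all genes rose (median log2 fold change -0.45). In that step none of the 4 proliferation genes passed (median -0.11). From P3 to P5, 31 fell, 8 of them more than 2-fold, against 15.3% and 3.05% of all genes (median -0.63), and none rose, and all 4 proliferation genes fell (median -1.47). From P5 to P7, 22 fell and none rose, against 9.1% of all genes falling (median -0.38), and 3 of the 4 proliferation genes fell (median -1.29). Mean CPM was lower at each passage than at the one before for 34 of the 40 genes. The step with the largest fall was P1 to P3 for 5 genes, P3 to P5 for 22 and P5 to P7 for 13. A fall passed the test in all 3 steps for 15 genes, in 2 steps for 14 and in 1 step for 4. These counts over several steps were made for the 40 genes alone. Without the share over all genes they cannot be read as particular to the 40.

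In the first step the 3 genes with the smallest adjusted p were Pola2 (log2 fold change -0.83, SE 0.09, adjusted p = 1.19e-06), Pcna (log2 fold change -0.64, SE 0.08, adjusted p = 9.99e-06) and Lig1 (log2 fold change -0.76, SE 0.12, adjusted p = 4.54e-05). The 2 genes that rose were ORC subunits. Orc3 went from 39.8, 41.7, 40.5 and 43.7 CPM at P1 to 44.8, 61.3, 52.5 and 57.5 CPM at P3 (log2 fold change 0.38, SE 0.14, adjusted p = 0.0362), without overlap, but its adjusted p lay above 0.05 when P1 replicate 1, 2 or 3 or P3 replicate 2, 3 or 4 was left out, with log2 fold changes of 0.32 to 0.4. Orc5 rose by 0.49 (SE 0.14, adjusted p = 0.0098), with its lowest P3 library, at 14.3 CPM, just under its highest P1 library, at 14.4 CPM. In the second step Pola1 changed most, from 34.2, 33.2, 35.3 and 37.5 CPM at P3 to 17.1, 16.2, 11.3 and 8.41 CPM at P5 (log2 fold change -1.41, SE 0.15, adjusted p = 4.2e-06), followed in adjusted p by Cdc45 (log2 fold change -1.03, SE 0.14, adjusted p = 2.76e-05) and Pcna (log2 fold change -0.65, SE 0.09, adjusted p = 2.77e-05). In the last step the smallest adjusted p were those of Lig1, from 29.6, 19.1, 26.4 and 22.1 CPM at P5 to 9.62, 10.5, 10.5 and 8.61 CPM at P7 (log2 fold change -1.31, SE 0.13, adjusted p = 1.7e-06), Prim1 (log2 fold change -1.34, SE 0.18, adjusted p = 3.09e-05) and Pole (log2 fold change -1.26, SE 0.18, adjusted p = 5.48e-05).

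Whether a step was larger than the one before it was tested directly. The change from P3 to P5 was more negative than that from P1 to P3 for 3 of the 40 genes, where 9.46% of all genes passed in that direction. The count is thus no larger than among all genes. In the same test 9 of the 30 other replication genes and all 4 proliferation genes passed in that direction. The 3 genes were Dbf4 (difference of log2 changes -1.18, SE 0.26, adjusted p = 0.0064), Pola1 (-0.96, SE 0.25, adjusted p = 0.0152) and Orc3 (-0.72, SE 0.23, adjusted p = 0.0414). Dbf4 stood at 64.7, 62.2, 64.7 and 64.8 CPM at P1 and 58.4, 64.9, 78.7 and 68.98 CPM at P3, groups that overlapped, and at 42.9, 34.9, 29.3 and 19.6 CPM at P5, all below both. Pola1 did not pass without P3 replicate 4, and Orc3 did not pass without P1 replicate 1, 2 or 3, P3 replicate 2, 3 or 4 or P5 replicate 3 or 4. The count moved with single libraries: it was 1 without P3 replicate 4, 5 without P3 replicate 1, 6 without P5 replicate 2 and 9 without P5 replicate 1. None of the 40 genes passed for the last step against the second in edgeR, where 0.64% of all genes passed with a more negative last step, and 2 had an unadjusted p under 0.05. The closest were Lig1 (-0.59, adjusted p = 0.173), Gins3 (0.69, adjusted p = 0.254) and Gins1 (-0.74, adjusted p = 0.325).

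Overexpression of E2f4, an E2F factor that binds promoters of cell cycle genes, was compared with the vector control in P4 cells to ask whether the factor acts on the senescence program. Of the 40 genes, 25 rose and 2 fell, where 28.9% of all 13199 genes tested rose and 28.2% fell. The rise exceeded 2-fold in 12 of them, against 7.69% of all genes, and the median log2 fold change was 0.65, against 0.01 for all genes. All 5 GINS and Cdc45 genes and both CAF-1 genes rose, 5 of 6 clamp and loader genes rose, and neither DDK gene passed (-0.16 for Cdc7 and 0.12 for Dbf4). Each group had 2 libraries. Unassigned reads held 7.89% and 7.5% of the counts with E2f4 and 12.9% and 12.3% in the controls. The part of that difference in the result was not tested.

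The smallest adjusted p was that of Lig1, at 84.2 and 81.5 CPM with E2f4 and 27.3 and 33.4 CPM in the controls (log2 fold change 1.45, SE 0.13, adjusted p = 1.6e-05). Chaf1a was at 68.9 and 74.2 CPM against 29.9 and 27.4 CPM (log2 fold change 1.32, SE 0.12, adjusted p = 1.7e-05), and Pold1 at 65.5 and 72.6 CPM against 27.3 and 29.5 CPM (log2 fold change 1.28, SE 0.12, adjusted p = 2.1e-05). In each of these the overexpressing libraries lay above both controls. On the other strand, exons of Chaf1a overlap those of Ubxn6 by 620 bases, those of Lig1 overlap Zswim9 by 254, those of Gins2 overlap Gse1 by 118 and those of Fen1 overlap Tmem258 by 63, and reads of the 2 genes of each pair cannot be told apart there. The largest change was that of Gins2, which rose 2.92-fold. Pcna rose 1.71-fold, from 100 and 93.7 CPM to 172 and 159 CPM. The 2 genes that fell were ORC subunits: Orc4, from 80.8 and 64.3 CPM to 31.2 and 25.2 CPM (log2 fold change -1.36, SE 0.15, adjusted p = 4.58e-05), and Orc3, from 73.7 and 66.5 CPM to 40.9 and 36.3 CPM (log2 fold change -0.86, SE 0.12, adjusted p = 0.000182). Of the 30 other replication genes, 21 rose and 1 fell, and of the 4 proliferation genes 2 rose. The 8 skeletal muscle markers summed to 67.8 to 77.1 CPM in the controls and 23.2 to 24.1 CPM with E2f4, with Myh3, Myog, Ckm and Myod1 at 0 in both. Only 3 of the 8 were tested, of which 1 was lower and 2 did not pass. The part of these markers in the result was not tested.

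Knockdown of E2f4 with hairpin sh1 in P3 cells gave falls and no rises. Of the 40 genes, 14 fell, where 7.79% of all 12310 genes tested fell, and none rose (median log2 fold change -0.28, with -0.01 for all genes). None fell as much as 2-fold. Timeless was at 13.2, 11.9 and 12.6 CPM with sh1 and 22.3, 19.98 and 21.2 CPM with the non-targeting hairpin (log2 fold change -0.75, SE 0.12, adjusted p = 0.000701). Pold2 was at 18.1, 18.2 and 14.6 CPM and 30.01, 26.8 and 26.8 CPM (log2 fold change -0.72, SE 0.12, adjusted p = 0.000833), and Pold1 at 34.6, 35.8 and 28.6 CPM and 46.5, 49.1 and 52.8 CPM (log2 fold change -0.58, SE 0.10, adjusted p = 0.00127). The groups did not overlap for any of these 3 genes. The largest fall was that of Orc1, by 0.84 on the log2 scale, while Pcna did not pass (log2 fold change -0.07, SE 0.09, adjusted p = 0.606) and no RPA gene did. Of the 4 proliferation genes, 3 fell. Without non-targeting replicate 3, 9 of the 40 genes fell. Fibroblast markers summed to 23800 to 26200 CPM with sh1 and 30900 to 31900 CPM in the controls, skeletal muscle markers to 113 to 137 CPM and 76.5 to 77.2 CPM, and macrophage markers to 14.2 to 20.7 CPM and 5.71 to 10.5 CPM, with 2 of 3 tested macrophage markers higher (median log2 fold change 1.22). Among the 8 fibroblast markers, 3 were lower and 2 higher (median 0.01), and 1 of 2 tested skeletal muscle markers was higher. The part of these markers was not tested.

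The passage and E2f4 experiments share no library. In the passage series E2f4 mRNA itself fell 1.2-fold from P1 to P7 (log2 fold change -0.27, SE 0.09, adjusted p = 0.0122). It passed in no single step. The log2 fold change of E2f4 with overexpression was 4.79, far larger in size than the -0.27 from P1 to P7. Of the 34 genes that fell from P1 to P7, 23 rose with E2f4 (67.6% of the 34 and 92.0% of the 25 that rose), leaving Gins4 and Rnaseh2a, which rose without falling by P7. Falls by P7 took in 85% of the 40 genes, rises with E2f4 62.5% and falls with sh1 35%, so lists of this size within the 40 overlap in any case. Over the 12672 genes tested in both experiments, the genes that fell by P7 and those that rose with E2f4 shared 38.7% of the former and 39.7% of the latter. Of the 14 genes that fell with sh1, 13 had fallen by P7 (38.2% of the 34 and 92.9% of the 14), with Orc3 as the exception, where all genes tested in both shared 16.3% and 61.8%. Genes that rose with E2f4 and fell with sh1 numbered 10 (40% of the 25 and 71.4% of the 14, against 12.9% and 49.3% over all genes), and all 10 had also fallen by P7: Rfc5, Pola2, Pold1, Pold2, Pole, Orc1, Gins2, Lig1, Timeless and Chaf1b. Among the genes with the deepest falls by P7 were some that did not pass with E2f4, namely Dna2 (0.15), Pola1 (-0.08), Wdhd1 (0.22), Pole2 (0.22) and Cdc7.

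**Figure D3:**
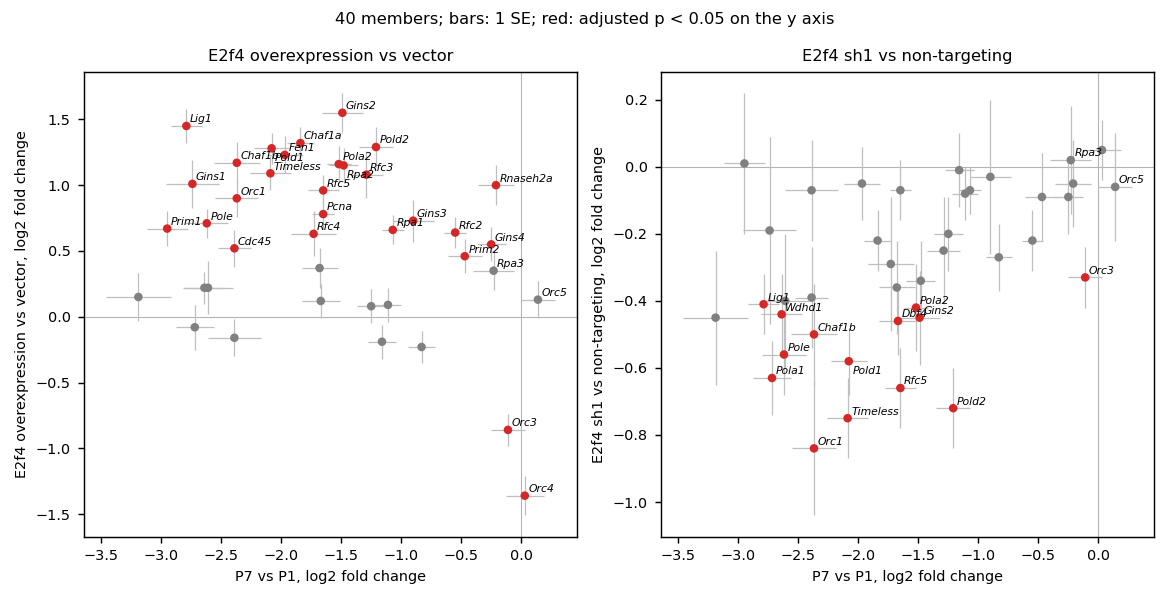
Log2 fold change of the 40 genes from P1 to P7 (x axis) against that with E2f4 overexpression (left, y axis) and with the E2f4 hairpin sh1 (right, y axis), with bars of 1 SE and red points where the adjusted p on the y axis is under 0.05. On the left 25 red points lie above 0 and Orc3 and Orc4 lie below it, and on the right all 14 red points lie below 0.

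Knockdown of Tead1, a DNA-binding factor of the Hippo pathway, was tested with 2 hairpins. By the sequences that the paper lists, both target the same stretch of Tead1, shifted by 1 base. The hairpins are therefore not independent of each other, and effects on other targets that they may share were not tested. With sh3, 4 fell and 3 rose, where 17.7% of all 13012 genes tested fell and 17.6% rose, a larger share in each direction than among the 40. The count was 3 without sh3 replicate 2 and 4 without non-targeting replicate 1 or without non-targeting replicate 3. With sh4, 1 fell and 11 rose, against 14.7% and 14.4%. Both hairpins were set against the same controls. Rfc2, a clamp loader subunit, was at 13.7, 13.3 and 12.8 CPM with sh3, 18.6, 15.3 and 18.4 CPM with sh4 and 26.6, 35.8 and 32.5 CPM in the controls. Its log2 fold change was -1.25 with sh3 (SE 0.10, adjusted p = 1.17e-11) and -0.86 with sh4 (SE 0.09, adjusted p = 2.06e-08), and in neither case did a knockdown library reach the controls. Tipin was at 34.3, 33.5 and 32.7 CPM, 35.5, 34.7 and 36.6 CPM and 26.8, 25.7 and 24.4 CPM in the same order and rose by 0.39 with sh3 and 0.48 with sh4 on the log2 scale.

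With sh3, Rpa1 (-0.24), Pold1 (-0.17) and Dna2 (-0.49) were the other genes that fell, and Rfc4 (0.39) and Rfc1 (0.16) the others that rose. Rfc1 did not pass without non-targeting replicate 1 or 3 or sh3 replicate 2, nor Rfc4 without non-targeting replicate 2 or 3 or sh3 replicate 1 or 2. The Rpa1 groups did not overlap, at 89.6, 80.6 and 84.3 CPM against 99.3, 101 and 100.3 CPM. With sh4, Pola1 rose by 0.36 (adjusted p = 0.000482), and Pcna by 0.19 (adjusted p = 0.00523). Of the 4 proliferation genes, only Mki67 passed with sh3 (-0.28) and only Ccne2 with sh4 (0.39). Fibroblast markers summed to 27200 to 28100 CPM with sh3, 25700 to 26600 CPM with sh4 and 27900 to 29000 CPM in the controls, with 2 of 8 lower and 5 higher with sh3 and 2 lower and 3 higher with sh4. Skeletal muscle markers summed to 65.2 to 75.7 CPM with sh3, 73.6 to 83.8 CPM with sh4 and 98.7 to 100 CPM in the controls, and macrophage markers to 8.38 to 10.1 CPM, 9.48 to 12.6 CPM and 10.6 to 12.2 CPM. Of the tested markers, 2 of 4 macrophage and 2 of 3 skeletal muscle markers and the 1 endothelial marker were lower with sh3, and the 1 adipocyte marker was higher with both hairpins. Their part in the result was not tested. Between the hairpins themselves 7 genes were higher with sh4 and none lower, where 3.34% of all genes were higher. The 3 with the smallest adjusted p were Rpa1 (log2 fold change 0.29, SE 0.05, adjusted p = 0.00015), Lig1 (log2 fold change 0.26, SE 0.06, adjusted p = 0.00985) and Rfc2 (log2 fold change 0.39, SE 0.10, adjusted p = 0.0184). That count was 2 to 4 without sh3 replicate 2, sh3 replicate 3, sh4 replicate 1 or sh4 replicate 3. Rfc2 did not pass without sh3 replicate 3 or sh4 replicate 1 or 3, nor Lig1 without sh3 replicate 3 or sh4 replicate 3.

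Knockdown of Atf3, an AP-1 family factor of the stress response, moved the genes in both directions. With sh5, 4 fell and 8 rose, where 18.1% of all 13345 genes tested fell and 17.7% rose, and the count was 5 without non-targeting replicate 1 or 2 and 6 without replicate 3. The library sh5 replicate 3 stood apart from the other sh5 libraries over all genes, with chi-square values of 59.4 and 63.7 for each degree of freedom, against 3.29 between those, and it had the highest share of unassigned counts (16.8%). Without it 14 genes passed with sh5, 6 that fell and 8 that rose. With sh6, 8 fell and 10 rose, against 26.0% and 23.8%. Scaled to library totals without TMM factors, the split with sh6 was 10 that fell and 8 that rose. The median log2 fold changes were 0.08 and 0.01. These shares were near or below those of all genes. The hairpins used the same controls, and fibroblast markers summed to 13600 to 14600 CPM with sh6, 21500 to 34200 CPM with sh5 and 35600 to 37400 CPM in the controls, with 6 of 8 lower with sh6. With sh5, 1 fibroblast marker was lower and 3 were higher. Skeletal muscle markers summed to 199 to 217 CPM with sh6, 16.9 to 19 CPM with sh5 and 38.4 to 40 CPM in the controls. Among the 4 skeletal muscle markers tested, 2 were lower and 2 higher with sh6, and 1 was lower with sh5. Of the 4 proliferation genes, only Ccne2 passed with sh5 and rose (0.70), while Mki67 (-0.56) and Ccnb1 (-0.47) fell with sh6. E2f4 was 1.6-fold higher and Cdkn1a 1.62-fold higher with sh6, and neither passed with sh5. The part of these genes and of the markers in the values below was not tested.

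Of the 6 ORC genes, 4 were among the 8 genes that rose with sh5 and 5 among the 10 that rose with sh6. Orc2, Orc4 and Orc6 rose with both hairpins, while Orc3 passed with sh5 alone and Orc1 and Orc5 with sh6 alone. ORC was singled out after the calls were seen, and its share was not tested against that of the other roles. Orc4 was at 70.6, 65.7 and 79.1 CPM with sh5, 61.1, 71.3 and 68.7 CPM with sh6 and 46.02, 40.8 and 44.9 CPM in the controls, with log2 fold changes of 0.71 (adjusted p = 0.000841) and 0.61 (adjusted p = 0.00046). Orc6 was at 44.8, 46.3 and 44.4 CPM with sh6 against 25.7, 23.6 and 24.98 CPM (log2 fold change 0.87, SE 0.11, adjusted p = 7.65e-05). Lig1 was at 17.8, 17.4 and 15 CPM with sh5, 19, 16.8 and 17.02 CPM with sh6 and 24.4, 28.5 and 27.4 CPM in the controls, with log2 fold changes of -0.68 and -0.60 (adjusted p = 0.00194 and 0.00115). The other genes that fell with sh5 were Pola2 (-0.46), Pold1 (-0.48) and Chaf1a (-0.38), of which Pold1 did not pass without any 1 of the non-targeting libraries and Chaf1a without any 1 of these or of sh5 replicates 1 and 3. Without sh5 replicate 3 the value of Pold1 was -0.30. The others that fell with sh6 were Pold3 (-1.07), Gins4 (-0.87), Timeless (-0.76), Rfc3 (-0.68), Rfc1 (-0.57), Pola1 (-0.52) and Tipin (-0.43), of which Pola1 did not pass without any 1 of the sh6 libraries or non-targeting replicate 2 or 3. The largest rise with sh6 was that of Dna2, from 3.44, 2.52 and 3.19 CPM to 7.55, 6.89 and 6.91 CPM (log2 fold change 1.22, SE 0.18, adjusted p = 0.000336).

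The hairpins differed from each other in 20 of the 40 genes, 11 lower with sh6 than with sh5 and 9 higher, where 26.6% and 25.9% of all genes were lower and higher, close to the shares among the 40. Tipin was at 27.9, 28.6 and 35.6 CPM with sh5 and 14.6, 14.4 and 15.6 CPM with sh6, against 20.02, 20.03 and 20.2 CPM in the controls, so that sh5 lay above and sh6 below the controls without overlap. The difference between the hairpins was -1.04 on the log2 scale (SE 0.11, adjusted p = 3.46e-05). Pola2 differed by 0.74 (adjusted p = 0.000341) and Rfc1 by -0.59 (adjusted p = 0.00047). Also higher with sh6 were Rnaseh2a (0.78), Dna2 (0.69), Gins3 (0.67), Prim2 (0.63), Orc6 (0.53), Chaf1a (0.52), Pold2 (0.47) and Gins2 (0.42). Of these, Prim2 and Gins3 did not pass without sh5 replicate 1 or 2, nor Gins2 without sh5 replicate 2 or 3, and these 3 genes and Pold2 also lost the call without single sh6 replicates (Prim2 2 or 3, the others 1 or 2). Without sh5 replicate 3 the hairpins also differed in 20 genes, 12 lower and 8 higher with sh6. That library was the one furthest from the others in Gins4, at 46.6 CPM against 26.0 and 24.7 CPM.

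**Figure D4:**
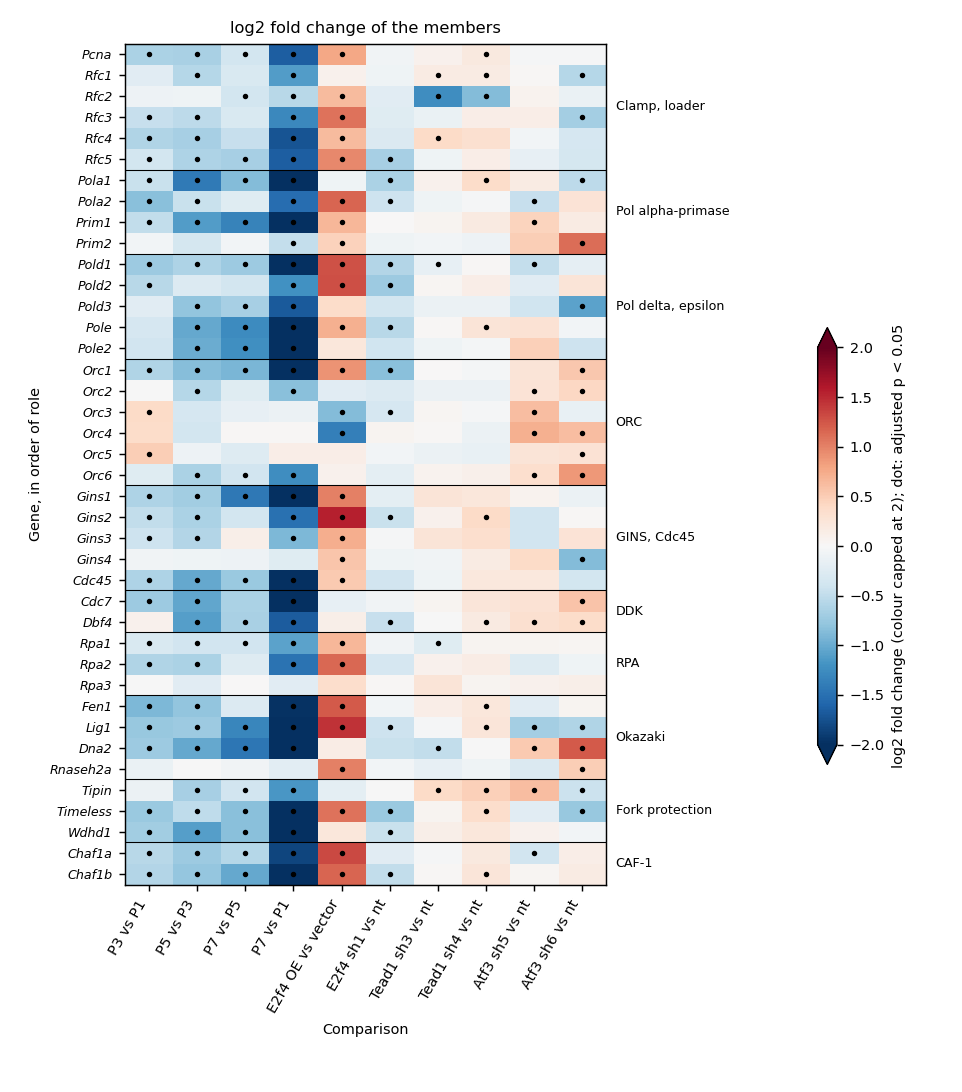
Log2 fold change of the 40 genes (rows, in order of role) in 10 comparisons (columns, nt for the non-targeting hairpin), with a dot where the adjusted p is under 0.05. The column of P7 against P1 has a dot in all rows but those of the 6 genes that did not pass, the E2f4 overexpression column is mostly red, and the Tead1 and Atf3 columns hold both colours.

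ATAC-seq, which marks open chromatin, gave the state of the promoters over the same passages. All 40 genes had a peak within 1000 bases of a start in all 13 samples, as had 57.8% of the 26180 genes with a curated start. The strongest promoter peak of the 40 genes was ranked within its sample by -log10 p, with a median percentile of 92.6 to 95.8, where promoters of all genes with a peak in every sample had 88.5 to 91.99. The peak lists hold no read counts, so the depth is unknown, and the number of peaks was 142384 to 231558 per sample. It differed with passage, at 168982 to 186562 at P1, 142384 to 155681 at P3 and 200376 to 231558 at P7, ranges that did not overlap. The part of the number of peaks in the differences between passages was not tested. Peak strength below is the log2 fold enrichment of the strongest promoter peak, centred on the median of the 15142 promoters with a peak in every sample.

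From P1 to P7 the peaks of 6 genes weakened and those of 7 strengthened, where 11.1% of all promoters weakened and 9.85% strengthened. The median difference was 0.07. The count was 6 to 8 without P1 replicate 1 or without any 1 of the P7 replicates. The promoter of Cdc7 had centred values of -0.09, 0.04, -0.11 and 0.06 at P1 and -0.33, -1.51 and -0.76 at P7 (-0.84, SE 0.20, adjusted p = 0.0116), with P7 replicate 2 far below the others. Prim1 had -0.45, -0.32, -0.21 and -0.50 at P1, 0.20, 0.03 and -0.23 at P3 and -0.86, -0.92 and -1.17 at P7. Its difference from P1 was -0.62, SE 0.19, adjusted p = 0.037, which missed the threshold without any 1 of these samples, and that from P3 was -0.98, SE 0.20, adjusted p = 0.0121. Orc3 weakened with the smallest adjusted p of the 40 genes, from 0.37, 0.44, 0.52 and 0.28 to -0.11, -0.15 and -0.21 (-0.56, SE 0.08, adjusted p = 0.000634).

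Prim2 also weakened (-0.61, SE 0.12, adjusted p = 0.00412), and there the strongest peak was another one: its summit lay between -7 and 6 bases from the start in all P1 and P3 samples and in P5 replicates 1 and 2, and between -647 and -623 bases in P5 replicate 3 and all P7 samples. Pola2 (-0.44, SE 0.15, adjusted p = 0.0484) and Pola1 (-0.24, SE 0.07, adjusted p = 0.0213) were the other promoters that weakened. Without single samples of P1 or P7, Pola1 and Pola2 did not pass, nor did Pold1, Pold2, Pole2, Orc1 and Lig1 among those that strengthened. Pcna, whose mRNA fell, gained most: its promoter had 0.64, 0.63, 0.56 and 0.68 at P1, 0.69, 0.74 and 0.76 at P3, 0.84, 0.83 and 0.91 at P5 and 1.00, 1.11 and 0.95 at P7 (0.39, SE 0.06, adjusted p = 0.00169). Rpa2 rose from 0.37, 0.36, 0.51 and 0.44 to 0.73, 0.75 and 0.74 (0.32, SE 0.08, adjusted p = 0.0115), and Pold2 by 0.32, Orc1 by 0.27, Pold1 by 0.26, Pole2 by 0.25 and Lig1 by 0.22. By P7 the mRNA had fallen for all 7 genes whose peaks strengthened and for 5 of the 6 whose peaks weakened, all but Orc3, close to the 85% of all 40 genes. Against P3, 2 promoters were weaker at P7 and 2 stronger, where 5.07% and 4.28% of all promoters were: Prim1 and Prim2 (-0.65, SE 0.13, adjusted p = 0.01), and Orc1 (0.44, SE 0.09, adjusted p = 0.01) and Pcna (0.29, SE 0.07, adjusted p = 0.0234), which did not pass without P3 replicate 1 or P7 replicate 2.

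The direction depended on the measure. By the percentile of -log10 p within the sample, tested with limma, 15 of the 40 promoters were lower at P7 than at P1 and 1 higher, but 28.2% of all promoters were lower and 5.77% higher. The sign of the difference turned for 11 of the 40 promoters, all from above to below 0, and 2 of these, Lig1 and Pole2, had strengthened by peak strength. In the exact permutation test of each promoter's percentile over the 3 P7 and 4 P1 samples, two-sided, 19 of the 40 had an unadjusted p under 0.05, as had 39.8% of all promoters. The smallest p that the 35 possible splits allow is 0.0286, and none of the 40 passed after adjustment over all promoters, with a smallest adjusted p of 0.0717.

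**Figure D5:**
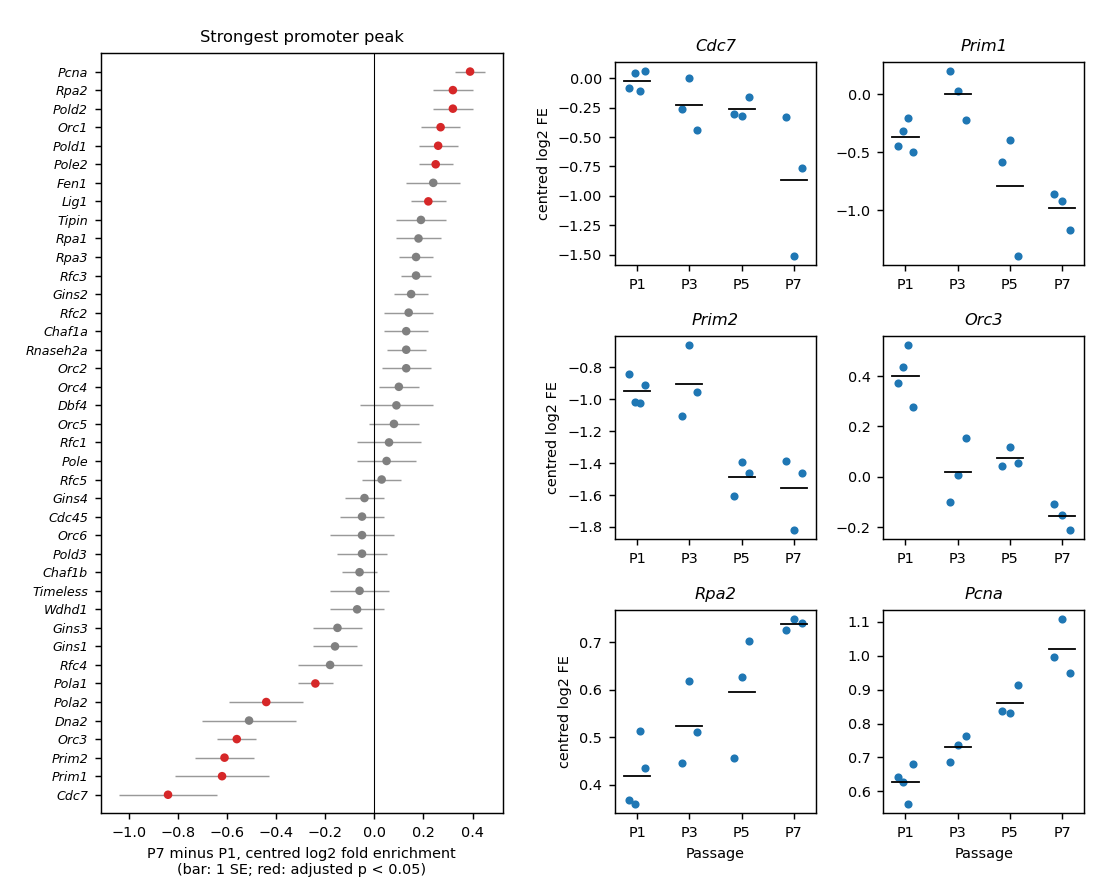
Left, difference in centred log2 fold enrichment (FE) of the strongest promoter peak between P7 and P1 for the 40 genes, with bars of 1 SE and red where the adjusted p is under 0.05. Right, the values in each sample at each passage for 6 genes, with the group mean as a line. Cdc7, Prim1, Prim2 and Orc3 lie lower at P7 than at P1, and Rpa2 and Pcna higher.

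Promoter sequence was read for the 33 of the 40 genes with an entry in the RefSeq promoter table of GRCm38.p6, which spans 250 bases before to 50 bases after each start and holds 41 entries for these genes. E2F-type 7-mers (the letters TTCCCGC, the letters TTCGCGC, the letters TTGCCGC or the letters TTGGCGC, on either strand) were found in 53.7% of the 41 entries, in 9.6% of all 32851 promoters and in 16.1% of the 15076 promoters with a peak in every sample. CCAAT boxes were in 43.9% of the entries and 37.4% of all promoters, the CHR element (the letters TTTGAA or the letters TTCGAA) in 19.5% and 19.2%, the TEAD-type 6-mer GGAATG in 9.8% and 14.7%, the ATF-type 8-mer TGACGTCA in 2.4% and 1.8%, and the AP-1-type 7-mer TGANTCA in 2.4% and 7.8%. A match describes letters and not a bound site. The 150 bases before the start are printed 5′ to 3′ on the strand of the gene for promoters that changed in ATAC-seq (Cdc7, Prim1 and Orc3 among those that weakened and Pcna and Rpa2 among those that strengthened), for the ORC gene with the largest fall in mRNA (Orc1) and for a gene with a strong response to E2f4 (Chaf1a). Capitals mark E2F-type 7-mers and CCAAT boxes. In GRCm38.p6 the windows are chr2:132253181-132253330 (minus strand, Pcna), chr4:132768210-132768359 (plus strand, Rpa2), chr10:128015065-128015214 (plus strand, Prim1), chr5:106964172-106964321 (plus strand, Cdc7), chr4:108579304-108579453 (plus strand, Orc1), chr4:34614943-34615092 (minus strand, Orc3) and chr17:56040266-56040415 (plus strand, Chaf1a).
Pcna: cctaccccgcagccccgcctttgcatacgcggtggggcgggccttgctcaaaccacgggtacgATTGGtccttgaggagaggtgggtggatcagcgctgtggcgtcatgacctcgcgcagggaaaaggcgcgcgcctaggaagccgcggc
Rpa2: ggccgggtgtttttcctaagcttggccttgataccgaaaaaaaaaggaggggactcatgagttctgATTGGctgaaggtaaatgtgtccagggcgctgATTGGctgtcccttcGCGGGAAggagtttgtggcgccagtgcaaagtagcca
Prim1: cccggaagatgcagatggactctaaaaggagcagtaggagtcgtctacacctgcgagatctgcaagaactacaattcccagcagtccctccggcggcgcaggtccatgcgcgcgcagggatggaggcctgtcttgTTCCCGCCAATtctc
Cdc7: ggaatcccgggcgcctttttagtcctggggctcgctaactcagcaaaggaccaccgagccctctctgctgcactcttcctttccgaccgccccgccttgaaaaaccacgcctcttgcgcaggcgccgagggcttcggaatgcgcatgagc
Orc1: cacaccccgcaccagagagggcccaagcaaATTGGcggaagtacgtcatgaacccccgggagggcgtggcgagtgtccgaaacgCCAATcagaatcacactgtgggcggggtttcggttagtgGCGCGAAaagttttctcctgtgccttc
Orc3: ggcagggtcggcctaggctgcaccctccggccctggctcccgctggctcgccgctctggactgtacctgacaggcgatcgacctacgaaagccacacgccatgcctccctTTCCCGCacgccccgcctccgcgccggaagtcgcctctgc
Chaf1a: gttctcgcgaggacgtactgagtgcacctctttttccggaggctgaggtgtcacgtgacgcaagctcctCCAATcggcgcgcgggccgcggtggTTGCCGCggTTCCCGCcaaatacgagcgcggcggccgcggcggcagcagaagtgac

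Of the printed windows, Chaf1a held 2 E2F-type 7-mers and Rpa2, Prim1, Orc1 and Orc3 held 1 each, while in Prim1 the 7-mer shared 1 base with the CCAAT box. Pcna had a CCAAT box only, and the printed window of Cdc7, from 1 of its 2 entries, had no match to either motif. Past the printed bases, that entry of Cdc7 held an E2F-type 7-mer at position 14 from the start, and the other entry also held the 7-mer. An E2F-type 7-mer anywhere in an entry was found for 20 of the 33 genes. For the 20 with it and the 13 without, with E2f4 overexpression the medians were 0.65 and 0.66, with 11 and 8 genes that rose, and with sh1 they were -0.31 and -0.39, with 7 and 5 that fell. From P1 to P7 the medians were -1.90 and -1.52, with 17 and 11 that fell. Orc3 and Orc4, which fell with E2f4 overexpression, both held the 7-mer.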

How the data were processed

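RNA-seq was analysed in 44 libraries and ATAC-seq in 13 samples, and 18 bisulfite sequencing samples were not analysed here. For the deposited gene counts the authors used Trimmomatic 0.39 for trimming, HISAT2 2.2.1 for alignment against mm10 and HTSeq 0.12.4 for counting, which ignored strand. Counts were used as deposited, after removal of the rows of unassigned reads, which held 7.5 to 16.8% of the counts in the intervention tables. For ATAC-seq the authors aligned reads with Bowtie2 2.3.5.1, removed duplicates with Picard and called peaks per sample with MACS2, and the deposited peak lists give fold enrichment and −log10 p-values.

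Groups came from the sample labels. The 40 genes, the other lists and the tests were chosen with earlier results of these data known. Counts were fitted for all genes with edgeR 4.0.16 in R 4.3.3 (filterByExpr, TMM normalization, quasi-likelihood test), 1 fit for each experiment, with Benjamini-Hochberg adjustment over all genes tested. A gene passed at an adjusted p under 0.05. Promoter peaks lay within 1000 bases of a RefSeq start in GRCm38.p6, the patched form of mm10. Log2 fold enrichment was centred on the sample's median and tested with limma 3.58.1. Given in every library were Pcna and the genes of each role with the largest and the smallest fall from P1 to P7. In other comparisons the rule named the 3 genes with the smallest adjusted p, every gene that passed against the majority direction and all genes where 5 or fewer passed, and for ATAC-seq the 2 largest falls and rises. Other list members were named after their values were seen. The labels do not say that replicates came from separate cultures or animals, so p-values measure the spread between these samples, which may be technical. The scripts were tested on simulated data. Alternatives were DESeq2 1.42.0, other scaling and filters, a replicate block, the 2 compared groups alone and leaving out each sample in turn.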

Additional observations from a re-analysis of the deposited data

Results flagged for a closer look

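Of 120 groups of 4 samples tested for an extreme sample, 3 were marked, where chance marks about 1 in 20. Gins1 was lowest in P7 replicate 4, at 1.113 CPM, with 1.756 to 1.775 CPM in the other P7 libraries. Dbf4 was lowest in P1 replicate 2, at 62.25 CPM, with 64.67 to 64.85 CPM in the other P1 libraries, a narrow spread overall. The centred ATAC value of the Dbf4 promoter was highest in P1 replicate 3, at 0.35, with 0.13 to 0.16 in the other P1 samples.

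Differences between effects passed their own test in the following comparisons. The change from P3 to P5 was more negative than that from P1 to P3 in 3 genes: Dbf4 (-1.18), Pola1 (-0.96) and Orc3 (-0.72). Since 9.46% of all genes passed, that count is no larger than among all genes. The Tead1 hairpins sh4 and sh3 differed in 7 genes, all higher with sh4, where 3.34% of all genes were higher, among them Rfc2 (0.39), Rpa1 (0.29) and Lig1 (0.26). The Atf3 hairpins sh6 and sh5 differed in 20 genes, 11 lower and 9 higher with sh6, where 26.6% and 25.9% of all genes were, so that the count is no larger than among all genes, among them Tipin (-1.04), Pola2 (0.74) and Rfc1 (-0.59).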

How the results depend on the processing

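Counts of passing genes stayed within 1.5 times the reported count under the alternatives run except where named here. With DESeq2, 4 genes passed for Tead1 sh3 (3 lower and 1 higher). With only the 2 groups compared in the fit, 7 passed for Atf3 sh5 (2 lower and 5 higher). With quantile normalization, 7 ATAC promoters passed between P1 and P7 (4 lower and 3 higher).

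Leaving out 1 library gave 1 to 9 genes for the difference between the second and first steps, 9 to 15 for E2f4 sh1, 3 to 6 for Tead1 sh3, 2 to 7 for Tead1 sh4 against sh3, 5 to 14 for Atf3 sh5 and 6 to 9 for the ATAC promoters at P7 against P1. It gave 34 to 36 for P7 against P1 and 27 to 29 for E2f4 overexpression.

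Among values that passed in either setting, signs turned for Orc5 mRNA at P7 set against P3 (-0.36), and by percentile of −log10 p for the promoters of Lig1 (-1.21), Orc5 (-2.81), Pole2 (-0.28) and Rfc3 (-1.36). In all, 11 of the 40 promoters changed sign by percentile. The cause was not tested. Of 2109 alternative values of single genes, 124 lost their call, 22 gained one and 1958 neither gained nor lost one.

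Replicate numbers were not taken to pair the samples, since not every pair's deviations correlated above 0.1: 11 of 24 passage pairs did (all 6 of replicate 4, at 0.11 to 0.28) and 1 of 18 ATAC pairs. Both E2f4 overexpression pairs did (0.14), but 2 pairs are too few to decide. With the number as a replicate block, 35 genes passed for P7 against P1, 29 for E2f4 overexpression, 13 for E2f4 sh1, 6 for Tead1 sh3, 12 for Tead1 sh4, 11 for Atf3 sh5 and 16 for Atf3 sh6, all within 1.5 times.

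Precision rests on 2 to 4 libraries a group, and low genes such as Dna2 at P7 rest on few reads. The peak lists give no read depth.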
